A study of Mus musculus with 2 samples.

Results

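Secretory cells of the conducting airway were examined in single-cell RNA counts from newborn mouse lung. The cells were chosen by measured values: at most 10% of a cell's UMIs came from mitochondrial genes, *Scgb1a1* reached at least 100 UMIs per 10000, and the ciliary genes *Foxj1*, *Dnali1*, *Dnah3*, *Dnaic2* and *Dnaaf1* summed to under 2 UMIs. A UMI, or unique molecular identifier, marks 1 captured transcript. These conditions held for 56 of 8003 filtered cells, 6 of 2388 in Batch 1 (0.251%) and 50 of 5615 in Batch 2 (0.890%, exact binomial 95% interval 0.662 to 1.17).

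Both libraries came from whole lung of wt C57BL/6J mice, reported as female, at postnatal day 1 (PND1). Each batch was 1 mouse, no treatment or other age entered, and Drop-seq, which captures single cells with barcoded beads in droplets, was used for both. The lungs were minced and digested with enzymes, and red cells were lysed. With 1 mouse per library and cells picked by their own transcripts, no difference was tested, and every interval covers counting error only. The secretory cells held 13549 UMIs in Batch 1 and 267595 in Batch 2, with medians of 2019 and 3000.5 UMIs per cell. Batch 2 therefore carried the values, and Batch 1 is given beside it. The 5 deepest Batch 2 secretory cells held 36.9% of the UMIs of that group, so pooled levels lean to deep cells. Over all filtered cells the medians were 1386.5 and 2014 UMIs. Levels are pooled UMIs per 10000, and since transcripts were tagged at their 3′ ends they do not scale with transcript length.

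Club cells are the main secretory cells of the rodent bronchioles. They line the airway beside ciliated cells, release secretoglobins and other defence proteins into the lining fluid, and carry high levels of enzymes that oxidize and conjugate inhaled chemicals. They also renew themselves and give rise to ciliated cells, and Notch signalling favours the secretory over the ciliated fate.

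The label was checked against the 2 marker genes that the rule did not use. *Scgb3a2*, a secretoglobin of the airway, had a UMI in 6 of 6 Batch 1 cells and in 49 of 50 Batch 2 cells (98.0%). *Cyp2f2*, the cytochrome P450 known for activating naphthalene in club cells, had a UMI in 4 of 6 and in 42 of 50 cells (84.0%). All 3 markers were present in 42 of 50 Batch 2 cells and in 4 of 6 Batch 1 cells. In endothelial reference cells, which should lack these genes (at least 3 UMIs of *Pecam1*, *Cdh5* and *Emcn*, no *Epcam*), the Batch 2 shares were 10.1% for *Scgb3a2* and 1.02% for *Cyp2f2*, at a median of 2513 UMIs. After thinning every cell to 1000 UMIs, which left out 10 secretory and 62 endothelial cells, the shares were 95% against 4.13% for *Scgb3a2* and 85.0% against 0.393% for *Cyp2f2*. *Scgb1a1* itself had a UMI in 49.9% of the Batch 2 endothelial cells, so a single *Scgb1a1* UMI did not mark a cell in this library. The call therefore rested on the level: the pooled endothelial level was 2.25 UMIs per 10000.

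The *Scgb1a1* limit fell in a sparse part of the range. In Batch 2 the lowest secretory cells stood at 101.0, 110.6 and 126.4 UMIs per 10000, and the nearest cells outside stood at 98.1, 77.7 and 69.3. Of the 50 Batch 2 cells and the 39 others that passed the *Scgb1a1* limit alone, the rule on ciliary genes separated 46 cells with 0 ciliary UMIs and 4 with 1 from 5 with 2 and the rest with more. That rule counts UMIs and not shares. The 39 removed Batch 2 cells had a median of 23178 UMIs (range 701 to 114913), against 3000.5 (range 653 to 27353) in the secretory cells. These are called removed *Scgb1a1*+ cells here, and 1 such cell was found in Batch 1. The name does not make them ciliary cells, since a deep cell could be removed at a low ciliary level. In 1 of them 5 ciliary UMIs stood among 41038. *Foxj1*, the regulator of motile cilia, had 3 UMIs in the 50 Batch 2 secretory cells and 0 in the 6 of Batch 1. The pooled ciliary level of the removed cells was 6.15 UMIs per 10000, against 0.149 in the secretory cells and 17.0 in 25 ciliary cells, defined as cells below the *Scgb1a1* limit with at least 3 ciliary UMIs.

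Cell barcodes were compared next. The libraries shared 0 barcodes. In Batch 2, 11 of the 50 secretory cells (22%) had a barcode that differed at 1 base from a barcode with at least 10 times as many UMIs, against 13 of all 5615 filtered cells (0.232%). All 11 lay next to 1 of 4 removed *Scgb1a1*+ cells of 57589 to 114913 UMIs and held 0.957 to 2.51% of the deeper barcode's UMIs. These 11 barcodes had 653 to 2420 UMIs, and together 4.63% of the secretory UMIs. Their *Scgb1a1* level was 819 per 10000, against 959 in the other 39 cells, and they carried 3 of the 4 ciliary UMIs. Other ciliary genes, outside the rule, were at 48.4 per 10000 in the 11 barcodes and 2.82 in the other 39 cells. They were at 65.4 in the removed *Scgb1a1*+ cells and 172 in the ciliary cells. Whether the 11 are separate cells was not tested, and values without them are given beside the main results that move. No Batch 1 cell had such a barcode, and 2 of the 39 removed *Scgb1a1*+ cells did.

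**Figure D1:**
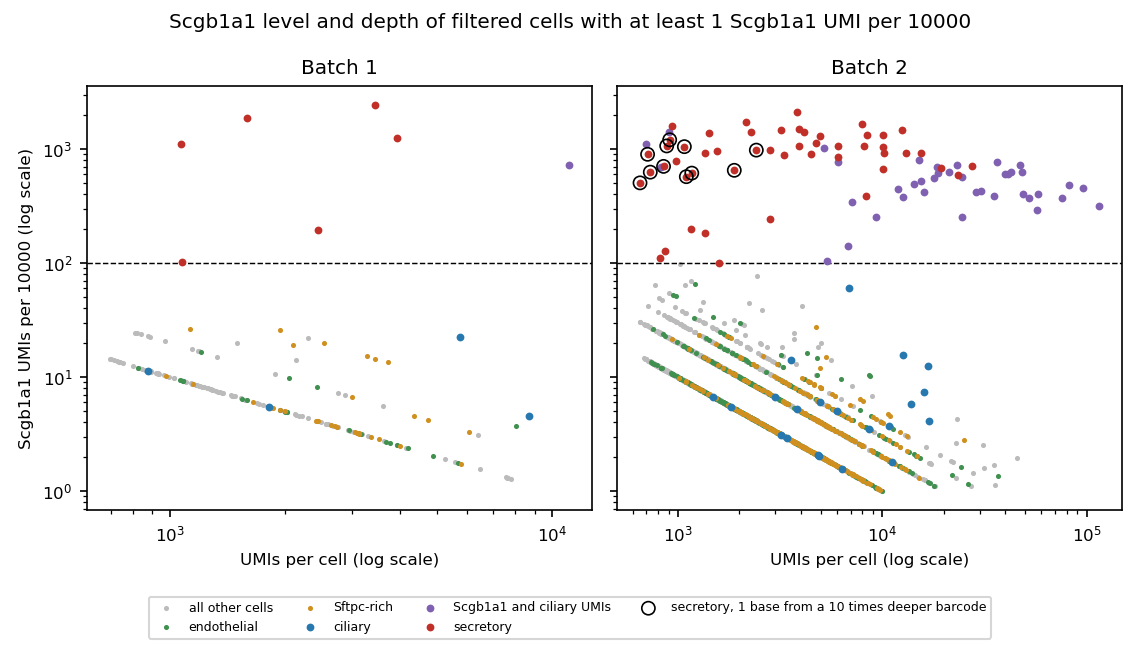
Each point is a filtered cell with at least 1 *Scgb1a1* UMI per 10000, by its UMIs (x axis, log scale) and its *Scgb1a1* UMIs per 10000 (y axis, log scale), in Batch 1 and Batch 2; the dashed line is the limit of 100, rings mark the 11 barcodes 1 base from a deeper barcode, and the slanting rows of points are cells with the same small number of *Scgb1a1* UMIs. The 39 Batch 2 cells removed for ciliary UMIs lie mostly to the right of the 50 secretory cells, with medians of 23178 and 3000.5 UMIs.

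To show the regulatory sequence next to the leading genes, up to 250 bases upstream of the start of 3 of the 15 genes with the highest ratio to all other cells are given, from the RefSeq promoter table on GRCm38.p6, 5′ to 3′ on the gene's strand. *Cyp2f2*, *Cbr2* and *Aldh1a7* are shown because each encodes an enzyme of inhaled or reactive compounds. Capitals mark CAAGTG, the core letters bound by NK2 factors such as NKX2-1, or the same letters read on the other strand. Bases inside the GENCODE gene models were left off, so the stretches shown are 204, 157 and 244 bases, at chr7:27119705-27119908 (plus strand), chr11:120732115-120732271 (minus strand) and chr19:20727563-20727806 (minus strand).
Cyp2f2: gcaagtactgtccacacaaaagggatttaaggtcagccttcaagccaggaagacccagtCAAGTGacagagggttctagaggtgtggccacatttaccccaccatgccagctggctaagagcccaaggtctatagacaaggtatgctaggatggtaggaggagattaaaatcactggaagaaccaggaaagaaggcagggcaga
Cbr2: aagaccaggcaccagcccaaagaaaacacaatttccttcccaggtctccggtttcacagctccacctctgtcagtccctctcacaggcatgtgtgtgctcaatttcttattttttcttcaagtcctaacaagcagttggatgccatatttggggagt
Aldh1a7: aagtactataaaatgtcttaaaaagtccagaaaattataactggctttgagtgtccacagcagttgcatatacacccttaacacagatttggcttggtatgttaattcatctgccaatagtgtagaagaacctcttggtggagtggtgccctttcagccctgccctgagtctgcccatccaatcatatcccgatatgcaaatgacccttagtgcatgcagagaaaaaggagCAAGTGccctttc
The table held 8 of the 15 leading genes, and CAAGTG stood in the 250 upstream bases of 4 of them, *Gsta3*, *Cyp2f2*, *Cldn10* and *Aldh1a7*, against 11.6% of 32851 promoters. The C/EBP letters TTGCNNAA stood in 3 of the 8, *Gsta3*, *Ptgr1* and *Retnla*, against 9.56%, and the forkhead letters TGTTTAC in 0 of the 8, against 3.17%. These matches describe letters in short windows and not binding.

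The secretoglobins were the most abundant secreted products. *Scgb1a1*, which encodes club cell secretory protein (chr19:9083636-9087958, minus strand, GRCm38), took 953 of every 10000 UMIs in the Batch 2 cells (25496 UMIs, exact Poisson 95% interval 941 to 965). By cell, its level ran from 101.0 to 2107 with a median of 928. The 6 Batch 1 cells stood at 2422, 1892, 1247, 1109, 196.6 and 101.9, so 4 of them lay above the Batch 2 median and 2 near the limit. *Scgb1a1* chose the cells, and its levels are a description.

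*Scgb3a2* was at 204 UMIs per 10000 in Batch 2 (interval 199 to 209), from 0 to 1173 by cell with a median of 107. The cell at 1173 alone held 1463 *Scgb3a2* UMIs, of 5355 in the 39 cells without a deeper barcode nearby. The Batch 1 cells, in the same order as above, stood at 320.6, 595.2, 824.8, 46.6, 4.10 and 18.5. The pair of Batch 1 cells near the *Scgb1a1* limit thus had the lowest *Scgb3a2*, and neither had a *Cyp2f2* or *Hp* UMI. One of them carried *Sftpc*, the surfactant protein of alveolar type 2 cells, at 1503 per 10000, which made up nearly all of the *Sftpc* level of 277 in the Batch 1 cells.

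Across the 50 Batch 2 cells, *Scgb3a2* followed *Scgb1a1* with a Spearman rho of 0.772, and 0.732 in 40 cells thinned to 1000 UMIs. The points share a library and each cell's total, so this is a description. Without the 11 barcodes near deeper ones, rho was 0.743 over 39 cells. For *Scgb1a1* and *Cyp2f2* rho was 0.520 over all 50 cells and 0.162 at 1000 UMIs, and the *Cyp2f2* level itself followed the UMIs per cell with a rho of 0.615.

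**Figure D2:**
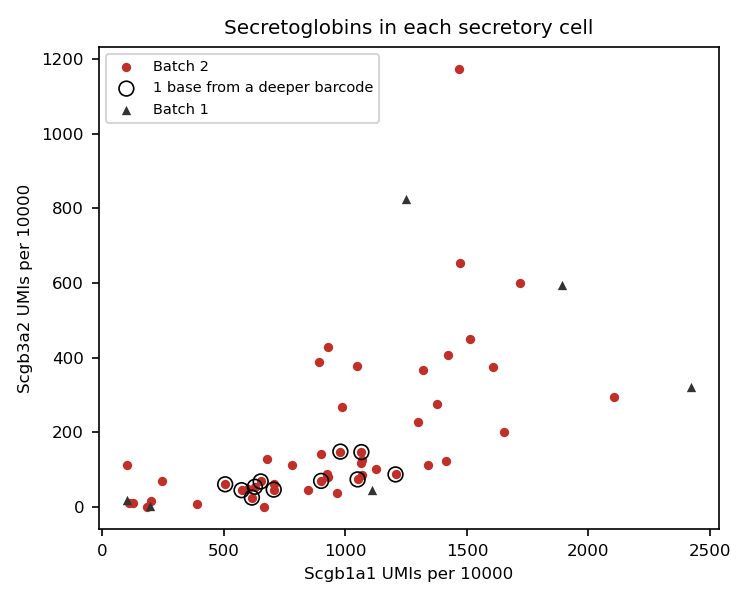
Each point is a secretory cell by its *Scgb1a1* (x axis) and *Scgb3a2* (y axis) UMIs per 10000, for 50 Batch 2 and 6 Batch 1 cells; rings mark the 11 barcodes 1 base from a deeper barcode. *Scgb3a2* runs from 0 to 1173, and the cells at the lower left are those near the *Scgb1a1* limit.

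Secretoglobins other than this pair were close to absent. Of 6 family members in the files, *Scgb3a1*, which marks mucous and goblet-type airway cells, had 2 UMIs in Batch 2 and 1 in Batch 1. *Scgb1c1* had 0 and 1. *Scgb1b27* and *Scgb2b27* had 0 UMIs in both batches, which in Batch 2 allows a pooled level of up to 0.112 per 10000.

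All other filtered cells of the same library served as the first reference. Of 1869 genes with at least 1 UMI per 10000 in either group, 51 (2.73%) were at least 4-fold higher in the Batch 2 secretory cells and 229 (12.3%) at least 4-fold lower. That reference contains the 39 removed *Scgb1a1*+ cells, which hold most of its *Scgb1a1* UMIs. *Scgb1a1* was 27.2-fold higher against all other cells and 340.2-fold higher against cells below the *Scgb1a1* limit. For *Scgb3a2* the ratios were 29.9 (interval 28.9 to 30.9) and 456, and for *Cyp2f2* 28.3 (interval 26.0 to 30.9) and 486. Of the 51 higher genes, 28 had at least 5 UMIs seen or expected in the Batch 1 cells, and the rest were not followed. All 28 were higher there too, 27 of them past 4-fold. Since 5 UMIs in the Batch 1 secretory cells were enough, this filter itself leans to the higher side, and 28 of 28 is a description. Of the 229 lower genes, 59 could be followed in Batch 1 by the same count, and 54 were lower there, 19 of them past 4-fold. Against non-secretory Batch 2 cells with a UMI of *Epcam* or *Cdh1*, 33 genes were higher and 81 lower, and averaging the shares of single cells, in place of pooling UMIs, gave 108 higher and 255 lower. With cells thinned to 1000 UMIs 139 were higher.

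*Cyp2f2* was at 28.4 UMIs per 10000 (interval 26.4 to 30.5) in Batch 2 and 25.8 in Batch 1. Its cell median was 19.6 and its highest cell 67.4. Carbonyl reductase *Cbr2* (chr11:120729489-120732114, minus strand, GRCm38) was the most abundant enzyme transcript named here, at 121 per 10000 (interval 117 to 125), with 48 of 50 cells holding a UMI and a cell median of 101. It stood at 15.9 in *Sftpc*-rich cells (at least 500 *Sftpc* UMIs per 10000, 771 cells in Batch 2) and at 8.54 in ciliary cells, so its reads were not limited to airway cells. In Batch 1 its secretory level was 167.

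**Figure D3:**
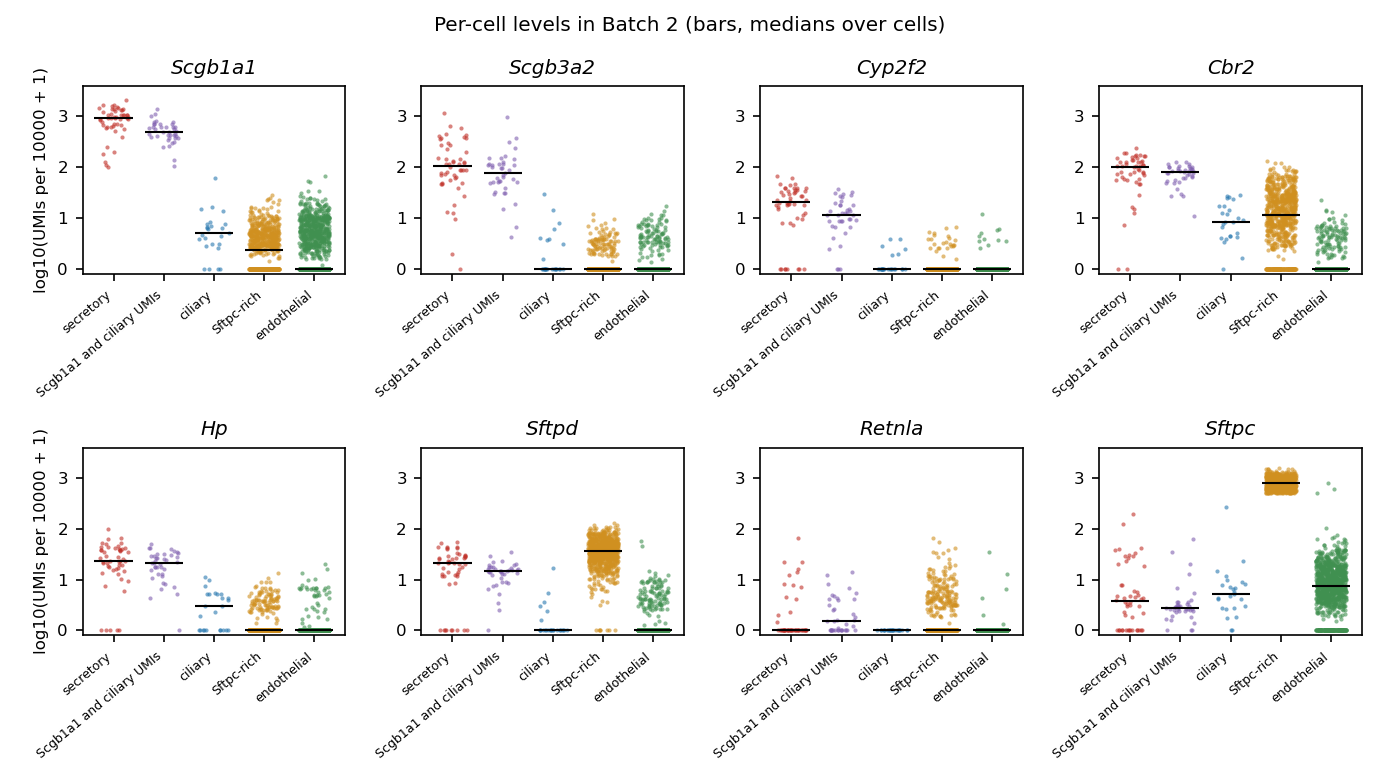
Each point is a Batch 2 cell, as log10(UMIs per 10000 + 1) on the y axis, for 8 genes in 50 secretory cells, 39 cells with *Scgb1a1* and ciliary UMIs, 25 ciliary, 771 *Sftpc*-rich and 1079 endothelial cells; bars are medians over cells. The *Scgb3a2* bar of the secretory cells corresponds to 107 UMIs per 10000, and that of *Sftpc* to 2.82.

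Both lists of enzymes of foreign compounds held several higher genes, beside the 2.73% over all genes. Of 25 oxidizing enzymes in the files (P450, flavin and aldehyde enzymes), 11 were compared, 5 were at least 4-fold higher (*Cyp2f2*, *Aldh1a7*, *Aox3*, *Aldh1a1* and *Maob*) and 1 was lower. The median log2 ratio of the 11 was 1.98, against -0.22 over all 1869 genes. *Aldh1a7* and *Aox3* reached the level for comparison only through the secretory cells, where they are high. The count and the median are therefore a description. *Aldh1a7*, an aldehyde dehydrogenase, was at 5.08 UMIs per 10000 against 0.389 in all other cells, and *Aox3*, an aldehyde oxidase, at 1.79 against 0.175. *Fmo2*, the flavin monooxygenase of lung, was at 15.1 per 10000 in 82.0% of cells, a ratio of 2.12 that stayed inside 4-fold, while its ciliary level was 0.277. *Por*, which hands electrons to P450 enzymes, was at 4.90 against 1.24. The lower gene was *Adh1*, an alcohol dehydrogenase, with 2 UMIs in the 50 cells (0.0747 against 1.09 per 10000).

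Conjugating and reducing enzymes gave 7 higher and 0 lower of 12 compared, with a median log2 ratio of 2.56. The 7 were *Gsta3*, *Gsta4*, *Cbr2*, *Ptgr1*, *Mgst1*, *Gsto1* and *Ces1d*. Some of them, such as *Gsta4* and *Ptgr1*, were compared only through the secretory cells, so this count and median are also a description. *Mgst1*, a membrane-bound glutathione transferase, was at 26.0 UMIs per 10000 against 3.64, and at 29.5 in Batch 1. *Ces1d*, a carboxylesterase, was at 17.0 against 3.03. *Gsta4*, a glutathione transferase that acts on lipid peroxidation products, was at 6.99 against 0.569, and *Ptgr1*, prostaglandin reductase, at 3.70 against 0.455.

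Of 13 antioxidant enzymes compared, 0 were 4-fold higher and 1 was lower, which lies near the shares over all genes (2.73% and 12.3%). *Prdx6*, a peroxiredoxin that also cleaves phospholipids, came nearest the limit at 27.2 UMIs per 10000 against 6.89, a ratio of 3.95, which became 4.40 against cells below the *Scgb1a1* limit. Without the 11 barcodes near deeper ones it was at 28.2 and past 4-fold, so that 1 of 13 was higher. *Sod1* was at 8.22 against 6.18, and *Gpx4* at 5.61 against 4.41. *Gpx3*, the secreted glutathione peroxidase, was the lower gene, with 6 UMIs in the 50 cells.

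Secreted defence proteins lay on both sides. Of 11 compared, 6 were at least 4-fold higher (*Cxcl17*, *Hp*, *Retnla*, *Wfdc1*, *Chia* and *Wfdc2*) and 3 were lower (*Lyz2*, *Lyz1* and *Sftpa1*), beside 2.73% and 12.3% over all genes. Here *Cxcl17* reached the level for comparison only through the secretory cells, and *Lyz1* and *Lyz2* only through the other cells. Against cells with *Epcam* or *Cdh1* 4 were higher and 4 lower, and against *Sftpc*-rich cells 3 of 12 were higher (*Hp*, *Cxcl17* and *Wfdc1*) and 4 lower. Haptoglobin, *Hp*, which binds free haemoglobin, was at 30.3 UMIs per 10000 against 2.73, and at 34.0 in Batch 1. *Wfdc2*, a whey acidic protein of airway secretions, was at 35.5 against 4.98, with 10.3 in *Sftpc*-rich and 14.1 in ciliary cells. The share of cells with *Hp* was 90.0% of secretory and 13.4% of *Sftpc*-rich cells, while *Wfdc2* had a UMI in 88.0% of secretory, 89.1% of *Sftpc*-rich and 96.0% of ciliary cells.

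*Retnla*, a secreted resistin-like protein, was unevenly spread. Its pooled level was 4.07 per 10000 with a UMI in 14 of 50 Batch 2 cells and a highest cell of 65.0, against 18.5 and 5 of 6 cells in Batch 1, where the highest stood at 50.9. It had 0 UMIs in the 25 ciliary cells, which allows a level of up to 0.166 per 10000, and 1.40 per 10000 in the *Sftpc*-rich cells, 22.8% of which had a UMI. *Cxcl17*, a mucosal chemokine, was at 1.46 per 10000 in 18.0% of cells, and its level in ciliary cells was higher, 3.88.

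The surfactant genes differed among themselves. *Sftpd*, a collectin also made by airway cells, was at 24.4 UMIs per 10000 in 82.0% of the Batch 2 cells, against 11.7 in all other cells and 36.8 in *Sftpc*-rich cells. After thinning to 1000 UMIs it was still seen in 75.0% of secretory cells, against 4.23% of endothelial cells. *Sftpa1* was at 3.48 against 71.9 in *Sftpc*-rich cells, and *Sftpb* at 4.60 against 49.5. In Batch 1, where 1 of 6 cells was rich in *Sftpc*, *Sftpa1* was at 33.2 and above its level in all other cells (13.9). The lysozymes *Lyz1* and *Lyz2* had 4 and 2 UMIs in the 50 cells, against levels of 11.1 and 11.6 per 10000 in *Sftpc*-rich cells.

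*Sftpc* had a UMI in 70.0% of the secretory cells, at 14.6 per 10000. Its share in endothelial cells was 83.8%, so the share in secretory cells was not above this background. At 1000 UMIs per cell the shares were 35.0% and 52.8%. Only 2 of 50 Batch 2 cells and 1 of 6 Batch 1 cells had *Sftpc* at 100 or more UMIs per 10000, and the highest Batch 2 cell stood at 194.

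**Figure D4:**
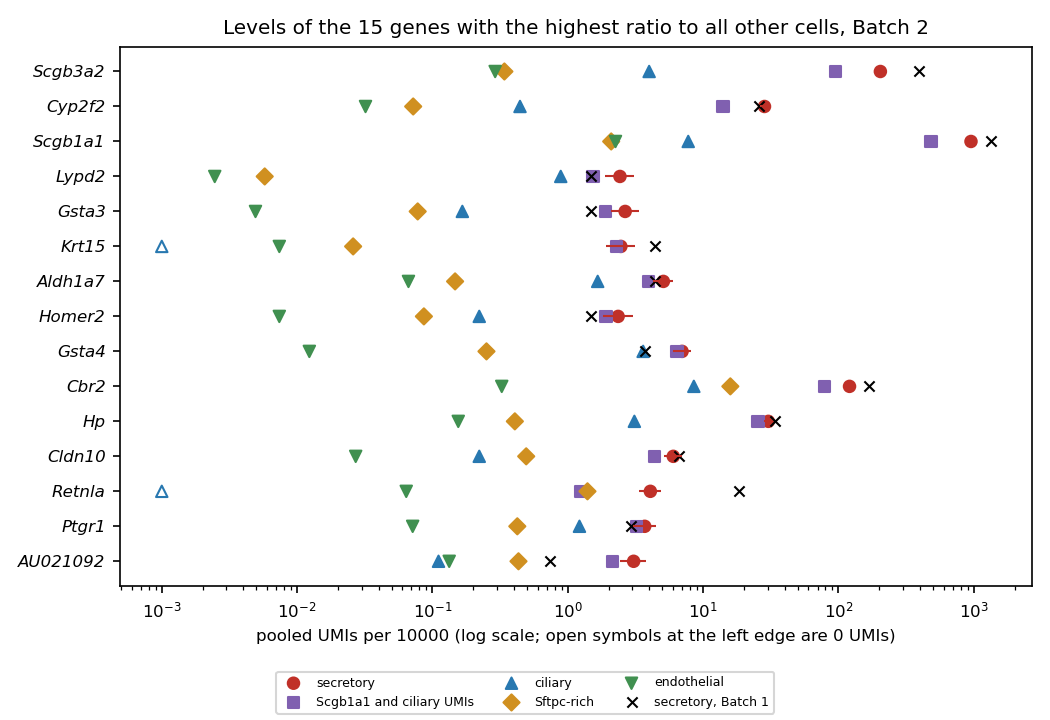
Pooled UMIs per 10000 (x axis, log scale) of the 15 genes with the highest ratio of secretory to all other Batch 2 cells (y axis, in order of ratio), in secretory cells (red, with exact Poisson 95% intervals) and 4 other groups of Batch 2 cells; crosses are the 6 Batch 1 secretory cells, and open symbols at the left edge are 0 UMIs. *Cbr2* is the gene with the highest *Sftpc*-rich level among the 15, 15.9 per 10000, and *Krt15* and *Retnla* have 0 UMIs in ciliary cells.

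Beyond enzymes and secretions, the 15 leading genes held *Lypd2*, *Krt15*, *Homer2*, *Cldn10* and *AU021092*. *Krt15*, a keratin best known from basal cells, was at 2.47 UMIs per 10000 in 21 of 50 Batch 2 cells and at 4.43 in 2 of 6 Batch 1 cells. It had 0 UMIs in ciliary cells and 2.28 per 10000 in the removed *Scgb1a1*+ cells. The defining basal genes *Trp63* and *Krt5* had 0 UMIs in the secretory cells of Batch 2, which allows up to 0.112 per 10000. *Lypd2* was at 2.43 in 52.0% of cells, and *Cldn10*, a claudin of tight junctions, at 6.02 in 60%.

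Other receptors and channels on the list of airway secretory genes were less abundant. *Cckar*, a cholecystokinin receptor, was at 1.16 UMIs per 10000 in 36.0% of cells against 0.0635 elsewhere, and the potassium channel *Kcnk2* at 1.05 against 0.0952. All 13 compared genes of that 17-gene list were at least 4-fold higher, beside 2.73% over all genes, and 12 of 13 against non-secretory cells with *Epcam* or *Cdh1*. Genes such as *Cckar* and *Kcnk2* reached the level for comparison only through the secretory cells, where they are high. The list was also chosen with earlier results of these data known, so these counts are a description. The list holds the 3 marker genes, 1 of which chose the cells.

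Epithelial junction genes were mostly within 4-fold of all other cells. Of 17 compared, 0 were at least 4-fold lower, and the claudins *Cldn10* and *Cldn7* were among those at least 4-fold higher. *Cldn3* was at 6.88 UMIs per 10000, *Krt8* at 6.13 and *Krt19* at 5.01, against 3.72, 2.18 and 1.44 in all other cells. Even so, 20 of 50 Batch 2 cells had no UMI of *Epcam* or *Cdh1*, the usual epithelial markers. Ion and water transport gave 1 higher and 2 lower of 11 compared, near the shares over all genes (2.73% and 12.3%), and *Atp1b1*, a subunit of the sodium pump, led it at 21.2 against 10.2.

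Regulators were sparse. Of 34 airway and lung transcription factors in the files, 9 reached the level for comparison, 0 were higher and 2, *Klf4* and *Sox4*, were lower, near the shares of 2.73% and 12.3% over all genes. *Nkx2-1*, the lung epithelial regulator, was at 1.68 UMIs per 10000 against 1.66 in all other cells and 3.40 in *Sftpc*-rich cells. *Elf5* was at 1.1 against 0.444, and *Foxp1* at 1.98 against 7.30. *Sox2*, the proximal airway regulator, had a UMI in 10 of 50 secretory cells, 0 of 771 *Sftpc*-rich cells and 1 of 1079 endothelial cells. It also had a UMI in 4 of 25 ciliary cells and 31 of 39 removed *Scgb1a1*+ cells. At 1000 UMIs the shares were 0% of secretory, 0% of ciliary and 13.9% of removed *Scgb1a1*+ cells.

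Among Notch genes, *Hes1*, a direct target of the pathway, was at 8.97 UMIs per 10000 in 76.0% of the Batch 2 cells, with a cell median of 7.20. Its level was 3.62 in all other cells, 7.09 in ciliary cells and 2.00 in *Sftpc*-rich cells, so against the first it stayed inside 4-fold. The receptors *Notch1* and *Notch2* were at 0.710 and 0.374 and the ligand *Jag1* at 0.486. Of 26 pathway genes, 2 were compared and 1 was called, *Dlk1*, a non-canonical ligand, which was lower (0.262 against 4.98), beside 12.3% lower over all genes.

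The secretory pathway and unfolded protein response gave 0 higher and 0 lower of 19 compared, beside shares of 2.73% and 12.3% over all genes. *Hspa5*, the main chaperone of the endoplasmic reticulum, was at 5.46 UMIs per 10000 against 3.74, and *Hsp90b1* at 5.31 against 6.92. Immediate early and stress genes gave 0 higher and 1 lower (*Klf2*) of 19, beside the same shares. *Jun* was at 6.50 against 10.00 and *Fos* at 6.32 against 11.9. The Batch 1 secretory cells had 0 UMIs of *Jun* and *Fos*, which allows up to 2.21 per 10000, beside 3.08 and 1.50 in all other Batch 1 cells. Of the signalling list, *Aldh1a1*, which makes retinoic acid, and *Fgfbp1*, a carrier of fibroblast growth factors, were higher of 6 compared, at 6.05 and 1.94. This count stands beside 2.73% over all genes, and *Fgfbp1* was compared only through the secretory cells.

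The compared markers of endothelial, fibroblast and mural, immune and erythroid cells were lower than in all other cells, and those of alveolar cells were lower in part. Endothelial genes were lower in 10 of 10 compared, fibroblast and mural genes in 7 of 7, erythroid genes in 4 of 4 and immune genes in 2 of 2, and alveolar type 2 and type 1 genes in 9 of 15 and 3 of 12, beside a background of 12.3% for lower genes. The endothelial, fibroblast and mural, and immune genes reached the level for comparison only through the other cells, where they are high. Their counts are therefore a description. The summed endothelial level was 1.46 UMIs per 10000 (0 to 15.3 by cell), that of fibroblast genes 1.38 (0 to 81.2), that of immune genes 0.747 (0 to 10.3) and that of erythroid genes 26.6 (0 to 1080.5). *Kdr* led the endothelial list but stayed below the level for comparison. It was at 0.862 per 10000, with a UMI in 41.0% of the 39 cells without a deeper barcode nearby. Alveolar type 2 genes summed to 59.5 (0 to 309.9), against 1095 in *Sftpc*-rich cells. Alveolar type 1 genes summed to 27.0 (0 to 80.5), against 37.8 in *Sftpc*-rich, 39.5 in all other and 10.1 in ciliary cells. Against ciliary cells, 6 of 10 were at least 4-fold higher, beside 4.94% over all genes in that comparison. No secretory cell of either batch reached 3 UMIs of *Pecam1*, *Cdh5* and *Emcn*, 10 of *Col1a1*, *Col1a2* and *Col3a1*, or 2 of *Ptprc*, *Spi1* and *Tyrobp*, against 2098 of 5615 filtered Batch 2 cells. These limits count UMIs and hold no erythroid gene. Shallow cells can therefore pass them, and the cells at 81.2 fibroblast and 1080.5 erythroid UMIs per 10000 did. The mucins *Muc5ac* and *Muc5b*, the basal genes *Trp63* and *Krt5*, and the neuroendocrine gene *Calca* had 0 UMIs. *Muc1*, a membrane mucin, was the 1 goblet-list gene compared, at 2.28 against 0.903. None of 20 cell cycle genes reached the level for comparison, and *Top2a* and *Mki67* had 9 and 3 UMIs, 5 and 3 of them in the cells without a deeper barcode nearby.

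**Figure D5:**
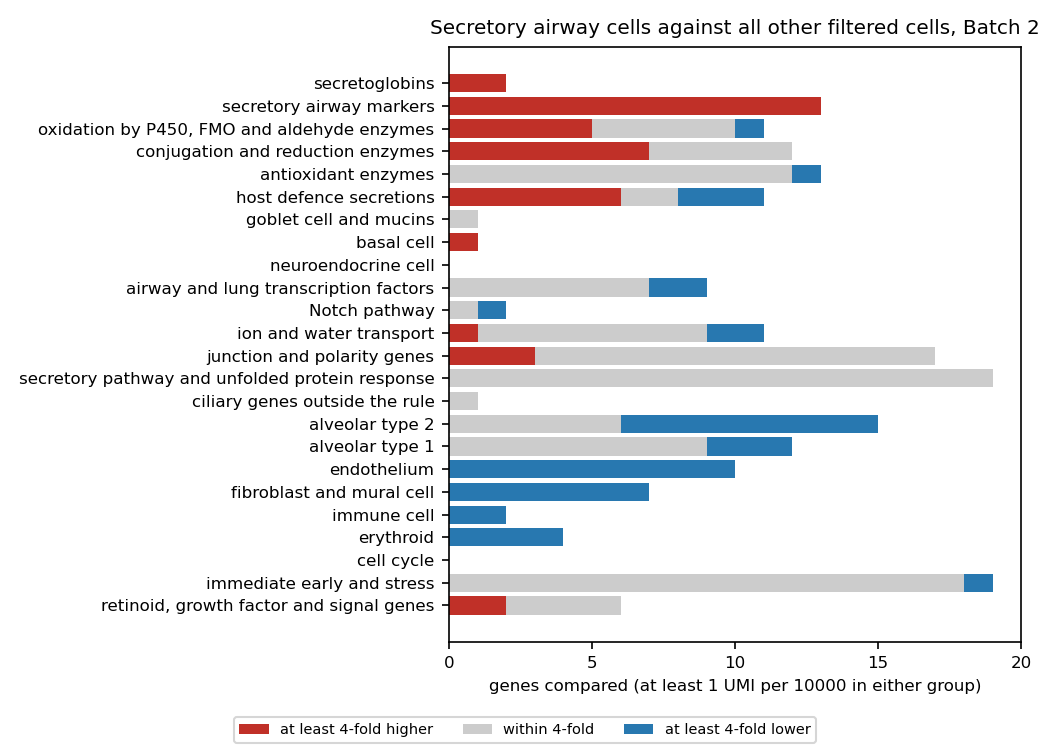
For each of 24 gene lists, the bar counts the genes compared between Batch 2 secretory cells and all other filtered cells (x axis), divided into those at least 4-fold higher (red), within 4-fold (grey) and at least 4-fold lower (blue). Higher genes fall mainly in the secretory, oxidation, conjugation and defence lists, beside 2.73% of all genes compared, and 10 of 10 endothelial genes are lower, beside 12.3%. Some higher genes were compared only through the secretory cells, and the endothelial genes only through the other cells.

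The 25 ciliary cells were the second reference. Of 2310 genes compared, 114 (4.94%) were at least 4-fold higher in the secretory cells and 573 (24.8%) at least 4-fold lower. The rule removed ciliary UMIs from the secretory cells, so the low ciliary genes were partly set by it: with the ciliary limit at 5 UMIs per 10000 in place of a count of 2, 302 genes were lower. Among 43 ciliary genes outside the rule, 29 were compared and 29 were lower, with a median log2 ratio of -5.03. All 29 reached the level for comparison only through the ciliary cells, which were themselves chosen by ciliary UMIs. The count of 29 of 29 is therefore a description. *Tmem212* had 1 UMI in the 50 secretory cells, at 8.20 per 10000 in ciliary cells, and *Riiad1* and *Akap14* also had 1 each, both in the 11 barcodes near deeper ones, at 6.04 and 3.82. *Hdc*, which makes histamine, had 1 UMI as well, at 3.99 in ciliary cells.

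*Mt1* and *Hsp90aa1* were higher in ciliary cells, although the immediate early and stress list as a whole had 1 higher and 2 lower of 17 in secretory cells, beside 4.94% and 24.8% over all genes, with a median log2 ratio of 0.24. *Mt1*, a metallothionein, was at 6.09 UMIs per 10000 in secretory and 84.6 in ciliary cells, and the chaperone *Hsp90aa1* at 5.79 and 45.3. In the 11 barcodes near deeper ones these were 24.2 and 18.6, and in the other 39 cells 5.21 and 5.17. The 11 barcodes held 30 of the 163 *Mt1* UMIs.

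Genes higher in secretory than in ciliary cells were led, after *Scgb1a1*, by *Ppap2b*, *Gprc5a*, *Cyp2f2* and *Fmo2*. *Ppap2b*, a lipid phosphatase, was at 4.15 against 0.0554 UMIs per 10000, the latter 1 UMI in all ciliary cells. *Gprc5a*, a retinoic acid-induced receptor, was at 4.07 against 0.0554, also 1 UMI. Of the 13 airway secretory genes compared, 8 were past 4-fold, beside 4.94% over all genes, some of them compared only through the secretory cells. The others included *Aldh1a1*, whose level was 9.48 in ciliary and 6.05 in secretory cells. In Batch 1, 43 of the 114 higher genes and 122 of the lower genes could be followed, with 7 ciliary cells. Of these, 43 were higher and 120 lower, and for the higher genes the filter again leans to that side.

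The 771 *Sftpc*-rich cells were the third reference. Here 66 of 1632 genes (4.04%) were at least 4-fold higher in secretory cells and 92 (5.64%) at least 4-fold lower. The count of higher genes was 145 at 1000 UMIs per cell, 112 with the ciliary limit at 5 UMIs per 10000 and 105 with averaged shares. All 13 airway secretory genes compared were higher, some of them compared only through the secretory cells. Of the enzymes, 6 of 10 oxidizing and 8 of 12 conjugating were higher, beside the 4.04% over all genes. The median log2 ratios of the 3 lists were 6.22, 3.30 and 2.22, against 0.00 over all genes. Some enzymes, such as *Aldh1a1*, were also compared only through the secretory cells, so these counts and medians are a description. *Aldh1a1* was at 6.05 against 0.0461 UMIs per 10000, and *Hp* at 30.3 against 0.406. Of 17 alveolar type 2 genes, 14 were lower, beside 5.64% over all genes, some of them compared only through the *Sftpc*-rich cells. *Egfl6*, *Dlk1* and *Hc*, the gene of complement C5, were at 0.0374, 0.262 and 0.149 in secretory cells and at 2.68, 16.9 and 6.20 in *Sftpc*-rich cells. In Batch 1, 26 of the 66 higher genes could be followed and 26 kept their side, by the same filter that leans to it. Of the lower genes, 30 of 31 followed kept their side.

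The lowest genes against all other cells included genes of vessels and mesenchyme. *Lyve1*, a hyaluronan receptor of endothelium, had 3 UMIs in the 50 cells, against 14.4 per 10000. *Rgs2*, *Slc43a3*, *Nrp1*, *Lox* and *Thbd* had 1 each, that of *Nrp1* in the 11 barcodes near deeper ones, against 3.40, 2.92, 2.63, 2.56 and 2.42. *Nrp1* is a co-receptor of VEGF, *Lox* crosslinks collagen and *Thbd* encodes thrombomodulin. Where a count rests on 1 to 3 UMIs the ratio is loose: that of *Thbd* was 0.0154 with an interval of 0.000390 to 0.0860.

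Some genes differed less between the removed *Scgb1a1*+ cells and the secretory cells than the secretoglobins and *Cyp2f2* did. *Scgb1a1* was at 481 UMIs per 10000 in the removed cells, a ratio of 1.98 (secretory over these cells, interval 1.95 to 2.01). *Scgb3a2* was at 95.1 against 204 in the secretory cells, *Cyp2f2* at 14.1 against 28.4 and *Cbr2* at 78.6 against 121. The levels of *Hp* (25.5), *Mgst1* (21.7), *Ces1d* (15.0) and *Krt15* (2.28) lay closer to the secretory values of 30.3, 26.0, 17.0 and 2.47. Since these cells differed from the secretory cells in depth and were set apart by a count of UMIs, depth and cell state cannot be told apart here.

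Variation between secretory cells was described by the variance over the mean, which can grow with the level, so the order of genes by it is also in part an order by level. *Scgb1a1* also chose the cells. Among 270 genes at 5 or more UMIs per 10000, with 40 cells thinned to 1000 UMIs, the value was 28.9 for *Scgb3a2* and 21.0 for *Scgb1a1*, against a median of 1.20. *Mt1* (12.1), *Sftpc* (9.16), *mt-Rnr2* (8.02), *Malat1* (7.06), *Hba-a1* (5.31) and *Hba-a2* (4.98) came next. *Cbr2* had 3.32, *Wfdc2* 2.05, *Hp* 1.94 and *Cyp2f2* 1.65, at lower levels than *Scgb3a2* and *Scgb1a1*. Without the barcodes near deeper ones, 35 cells remained, and the values were 28.8 for *Scgb3a2*, 21.8 for *Scgb1a1* and 15.7 for *Mt1*.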

How the data were processed

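Drop-seq libraries of 2 mice (Batch 1 and Batch 2) were used. The authors deposited counts: unique UMIs per gene and cell, made with the Drop-seq tools and Bowtie2 (version 2.2.7 per the submitters' notes) on mm10, without normalization or a limit on mitochondrial genes. The steps from there were run in Python 3.11.15 (numpy 2.4.6, scipy 1.17.1, pandas 2.3.3, matplotlib 3.10.9) and tested on simulated data. The cells and gene lists were chosen with earlier results of these data known.

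UMIs were pooled over cells and divided by the total, per 10000. Genes at 1 or more per 10000 in either group were compared by the ratio, and 4-fold was the limit for a count. Intervals are exact (95%, Poisson or binomial), and a count of 0 was given a floor of 3 counts. UMIs remove copies of the same molecule, but the intervals cover counting error only. For shares, cells were also thinned to 1000 UMIs. No doublet caller was run. In its place, cells reaching set numbers of endothelial, fibroblast or immune UMIs were counted, and 0 secretory cells did. This count sets no limit on single UMIs or on alveolar or erythroid genes, and a shallow cell can pass it with a high share. Fibroblast genes reached 81.2 and erythroid genes 1080.5 UMIs per 10000 in the highest Batch 2 secretory cells. *Sftpc* was at 100 or more per 10000 in 3 secretory cells.

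Genes were named by rule: the rule genes and markers, the secretoglobins, those with the largest ratios (15 higher and 8 lower against all other cells, 10 and 8 against the others, at 2 or more per 10000 and, if higher, in 25% of the cells), up to 5 of each list by level and up to 5 past the limit, and the 8 most variable. *Sox2* and the defining genes of other cells at 0 UMIs were added after their values were seen. Gene positions are from GENCODE vM21. Alternatives changed the limits of the cell choice, the pooling, the level filter, the reference cells and the library.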

Additional observations from a re-analysis of the deposited data

Results flagged for a closer look

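In Batch 2, 25 of 1940 cells above the mitochondrial limit met the other conditions for secretory cells (1.29%, exact binomial 95% interval 0.836 to 1.90), against 50 of 5615 cells within it (0.890%, 0.662 to 1.17). They were singled out because they show the secretory signal in cells left out of the main comparisons (they entered only where the mitochondrial limit was raised or dropped), and the intervals of the shares overlap. Their mitochondrial shares ran from 10.1 to 42.0% with a median of 15.6%, and their median depth was 1841 UMIs. Pooled over the 25 cells, *Scgb1a1* was at 601 UMIs per 10000, *Scgb3a2* at 149, *Cyp2f2* at 19.8 and *Cbr2* at 102, against 953, 204, 28.4 and 121 in the secretory cells within the limit. They had 0 ciliary UMIs, and 3 of them had a barcode 1 base from a deeper one. Batch 1 had 1 cell above the limit, which was not secretory by these conditions.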

How the results depend on the processing

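The number of secretory cells was 56. It was 16 with a mitochondrial limit of 5%, and 6 or 50 with either library left out. Other limits gave 49 to 81 cells.

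Without a filter beyond 1 UMI, genes higher and lower than in all other cells numbered 662 and 973, against ciliary cells 313 and 1562, and against *Sftpc*-rich cells 555 and 457. At 5 or more UMIs per 10000 these counts were 17 and 30, 30 and 66, and 17 and 25. With the ciliary limit at 5 per 10000, 84 genes were higher than in all other cells, 302 lower than in ciliary cells and 112 higher than in *Sftpc*-rich cells. Averaging single-cell shares gave 108 higher than in all other cells and 105 higher than in *Sftpc*-rich cells, and thinning to 1000 UMIs 139 and 145. Against cells with *Epcam* or *Cdh1*, 33 were higher and 81 lower. With either library left out, the ranges were 51 to 327 higher and 56 to 229 lower for all other cells, 114 to 120 and 134 to 573 for ciliary cells, and 66 to 311 and 40 to 92 for *Sftpc*-rich cells. The high counts of higher genes came from the 6 Batch 1 cells, where 1 UMI is 0.738 per 10000.

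The share of cells with *Scgb3a2* was 100% with a mitochondrial limit of 5%, 86.4% with *Scgb1a1* from 50 and 100% from 200 per 10000, and 98.0 to 100% with either library left out. For *Cyp2f2* that range was 66.7 to 84.0%.

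Of the named genes, 3 changed side against all other cells with the ciliary limit at 5 per 10000: *Tmem212* (ratio 4.87), *Riiad1* (4.02) and *Hdc* (2.68). *Riiad1* (3.71) and *Hdc* (1.13) also did so with averaged shares. With either library left out, *Sftpc* ran from 0.0704 to 1.61, *Sftpa1* from 0.179 to 2.39 and *Slc34a2* from 0.125 to 1.21, each above 1 in Batch 1 alone. The cause was not tested.

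Leaving out the barcodes near deeper ones, chosen after seeing the data, left 45 cells, 52 higher and 233 lower genes, and 186 of 189 ratios within their intervals. A reference without the removed *Scgb1a1*+ cells, also chosen later, gave 65 and 255. No paired analysis was possible because each library is 1 mouse of the same group and no test was run.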
